A study of Porolithon cf. onkodes and Sporolithon durum with 38 samples.

Results

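The transcripts described here are 3 members of the photosynthetic electron transport chain of Porolithon cf. onkodes (P. onkodes), a crustose red alga that cements coral reefs, out of 118126 transcripts in its count table and 303162 in the tables of both species of the series. DN73611_c0_g3_i1 was matched by the study to the PGR5-like protein 1B of Arabidopsis, and is called PGRL1 here. DN73854_c3_g3_i2 was matched to the iron-sulfur (Rieske) subunit of the cytochrome b6f complex of Chlamydomonas. DN73640_c0_g1_i1 was matched to CP47 of photosystem II. PGRL1 and the Rieske subunit were chosen because the study named them among the transcripts that changed in the combined treatment, and CP47 because it was a gene of interest in the study's RT-qPCR. The choice therefore rests on these same libraries, and the contrasts that involve the combined treatment are given as a description, without p-values and with counts of calls set only beside those over all transcripts.

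Orange-morph fragments of P. onkodes were collected from one reef area and kept for 3 months in 1 of 4 seawater treatments. These were elevated temperature with reduced pH (T + pH, 29.5 °C, pH 7.7 and 1000 µatm pCO2), elevated temperature (T, 29.5 °C, pH 8.0 and 450 µatm), reduced pH (pH, 27.2 °C, pH 7.7 and 1000 µatm) and a control (27.2 °C, pH 8.0 and 450 µatm). RNA of the upper pigmented layer, after removal of epiphytes, was sequenced by CEL-Seq2, a method in which reverse transcription is primed at the poly(A) tail and molecules are counted at their 3′ end by unique molecular identifiers (UMIs). Counts were used for 17 libraries, of which 5 were from T + pH, 4 from T, 4 from pH and 4 from the control, and each was a separate fragment. A further 2 libraries, PO9 and PO13, were not analysed here.

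In oxygenic photosynthesis, photosystem II takes electrons from water and passes them through plastoquinone to the cytochrome b6f complex, which hands them on towards photosystem I. CP47 is a core antenna protein of photosystem II that carries excitation energy to the reaction centre, and its gene psbB lies in the plastid genome of red algae. The Rieske subunit holds the iron-sulfur cluster with which cytochrome b6f oxidises plastoquinol. In Arabidopsis, PGRL1 acts with PGR5 in the cyclic route that returns electrons from photosystem I to plastoquinone. Plastid messenger RNAs as a rule lack the long stable poly(A) tail of nuclear ones, and CEL-Seq2 starts from such a tail. Whether the CP47 transcript counted here came from the plastid was not tested.

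CP47 is the member for which the study designed primers, and they are shown because they define the stretch of this transcript that its RT-qPCR read. Both are printed 5′ to 3′, and no letters are capitalised because no part of either is singled out.
CP47 forward primer: cctatggacaaaggcgatgg
CP47 reverse primer: tgacgctaacaccaacttgc
The reverse primer pairs with the strand whose own sequence there reads gcaagttggtgttagcgtca. Each primer has 20 bases. CEL-Seq2 counts the 3′ end of the poly(A)-primed molecule, and the distance of the amplified stretch from that end was not analysed here.

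The libraries differed widely in depth, and this bears on every value below. Total counts ranged from 78142 in PO19 (T + pH) to 3012292 in PO15 (T + pH), a 38.5-fold range, and PO15 alone held 51.5% of the counts of its treatment. Levels are given as CPM (counts scaled to a common library size) after TMM scaling, which adjusts library sizes for composition. On that scale 1 count stood for 18.5 CPM in PO19 and for 0.288 CPM in PO15. All 3 members passed the minimum of 5 counts over the libraries that 29276 transcripts passed, where the median was 48 counts in all, and each member had more. The median tested transcript had a count in 11 libraries, against 10 for the Rieske transcript. The R-phycoerythrin gamma chain transcript (DN70577_c1_g3_i1), part of the red light-harvesting pigment, had counts in 16 of 17 libraries and none in PO19. The shallowest library thus gives no reading of the pigmented tissue from that marker.

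PGRL1 was the member with the most counts, 525 in 16 of 17 libraries. In T + pH, PO12, PO15, PO19, PO6 and PO7 held 21, 327, 1, 30 and 15 counts, or 50.7, 94.0, 18.5, 17.9 and 17.3 CPM. In T, PO1, PO18, PO2 and PO8 held 5, 1, 58 and 13 counts, or 17.2, 5.55, 19.1 and 16.3 CPM. In pH, PO11, PO14, PO3 and PO5 held 4, 2, 8 and 11 counts, or 21.7, 14.2, 13.7 and 11.6 CPM. In the control, PO10, PO16, PO17 and PO4 held 22, 5, 2 and 0 counts, or 8.05, 10.9, 6.84 and 0 CPM. Every T + pH library was above every control library, and PO15 and PO12 stood above all other libraries of the species. The total of the deposited PO12 column, on which its CPM rest, differs from the total listed for that library in the study's own statistics, and the column was used as deposited. The remaining 3 T + pH libraries lay within the range of T and pH. The count of 0 in PO4 allows a level of up to 15.1 CPM, which is above the 3 other control libraries, so the depth of PO4 cannot tell it from them.

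The mean level of PGRL1 was 39.7 ± 33.5 CPM in T + pH (SD, n = 5), 14.6 ± 6.11 CPM in T (n = 4), 15.3 ± 4.43 CPM in pH (n = 4) and 6.46 ± 4.63 CPM in the control (n = 4). The order from high to low was T + pH, pH, T and control. The neighbours pH and T differed by less than the SD of either. Without PO15 the T + pH mean was 26.1 ± 16.4 CPM (n = 4), still the highest. The medians were closer together, at 18.5 CPM in T + pH, 16.8 CPM in T, 13.9 CPM in pH and 7.44 CPM in the control. By median the order of T and pH turned round and T + pH was near T.

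The Rieske transcript was sparse, with 119 counts in 10 of 17 libraries. In T + pH, PO12, PO15, PO19, PO6 and PO7 held 3, 83, 0, 8 and 6 counts, or 7.24, 23.9, 0, 4.78 and 6.93 CPM. In T, PO1 and PO18 held 0 counts, and PO2 and PO8 held 8 and 2 counts, or 2.64 and 2.51 CPM. In pH, PO11 and PO3 held 0 counts, and PO14 and PO5 held 1 and 2 counts, or 7.08 and 2.11 CPM. In the control, PO16 and PO17 held 0 counts, and PO10 and PO4 held 5 and 1 counts, or 1.83 and 5.04 CPM. PO15 was the highest library, and the ranges of T + pH and of each other treatment overlapped. Without PO19, at 0, T + pH would be separate from T alone. In PO19 a count of 0 allows up to 55.4 CPM, which exceeds every level measured for this transcript, so that this library carried no information on it. The other 4 T + pH libraries lay between 4.78 and 23.9 CPM, against 0 to 5.04 CPM in the control, and PO6 was below the 1 count of PO4.

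The mean level of the Rieske transcript was 8.56 ± 9.03 CPM in T + pH (SD, n = 5), 1.29 ± 1.49 CPM in T, 2.30 ± 3.34 CPM in pH and 1.72 ± 2.38 CPM in the control (n = 4 each). Without PO15 the T + pH mean was 4.74 ± 3.34 CPM (n = 4). T, pH and the control differed from each other by less than their SD, and their order changed between the mean, the median and the pooled counts. Those 12 libraries held 19 counts in all, with 10 in T, 3 in pH and 6 in the control.

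CP47 had 126 counts in 15 of 17 libraries and showed another pattern. In T + pH, PO12, PO15, PO19, PO6 and PO7 held 0, 9, 4, 8 and 5 counts, or 0, 2.59, 73.9, 4.78 and 5.78 CPM. In T, PO1, PO18, PO2 and PO8 held 7, 8, 19 and 5 counts, or 24.1, 44.4, 6.26 and 6.27 CPM. In pH, PO11, PO14, PO3 and PO5 held 1, 0, 10 and 16 counts, or 5.43, 0, 17.1 and 16.8 CPM. In the control, PO10, PO16, PO17 and PO4 held 18, 13, 2 and 1 counts, or 6.59, 28.4, 6.84 and 5.04 CPM. The highest level of the species came from 4 counts in the shallowest library, PO19, and the deepest library, PO15, was among the lowest. All treatments overlapped.

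The mean level of CP47 was 17.4 ± 31.7 CPM in T + pH (SD, n = 5), 20.3 ± 18.2 CPM in T, 9.85 ± 8.53 CPM in pH and 11.7 ± 11.2 CPM in the control (n = 4 each), and every difference between means was smaller than the SD within T + pH. Without PO19 the T + pH mean was 3.29 ± 2.56 CPM (n = 4), below the mean of every other treatment. By median T + pH was the lowest as well, at 4.78 CPM, against 15.2 CPM in T, 11.1 CPM in pH and 6.71 CPM in the control. The place of T + pH in the order by mean was thus set by 4 counts, and by pooled counts, with PO19 included, T + pH was again the lowest at 4.01 CPM.

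**Figure D1:**
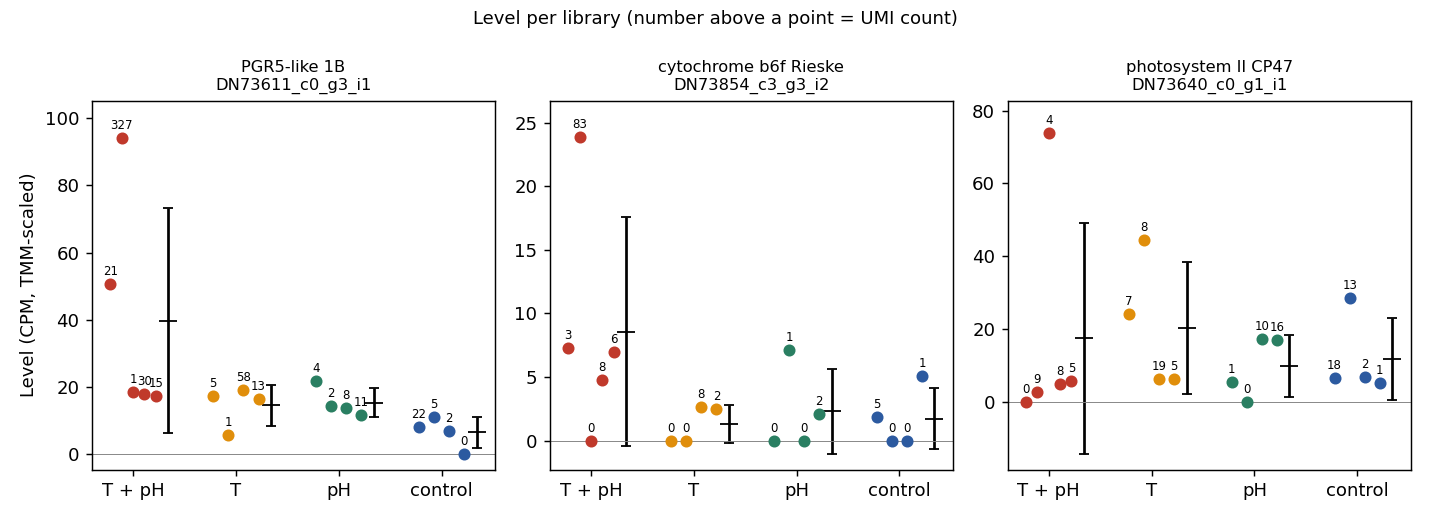
Level of PGRL1, the Rieske transcript and CP47 in CPM (vertical axis, separate scale per panel) in each library of T + pH, T, pH and the control, with the UMI count above each point, and the mean and SD as a bar at the right of each treatment. PGRL1 lies between 17.3 and 94.0 CPM in T + pH, above all control libraries, while the CP47 point at 73.9 CPM stands for 4 counts.

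The deepest library held most of the counts of PGRL1 and the Rieske transcript, but not of CP47. In PO15, the library with 3012292 counts, PGRL1 had 327 and the Rieske transcript 83 counts, and these were 83.0% of the T + pH counts of either transcript. For CP47 that library held 9 counts, 34.6% of the T + pH counts. The 8 libraries below 500000 counts together held 23 CP47 counts, a pooled level of 13.1 CPM (95% Poisson interval 8.31 to 19.7 CPM), against 103 counts and 7.07 CPM (5.77 to 8.57 CPM) in the 9 deeper libraries. In T the shallower libraries were higher as well, with 31.9 CPM (17.9 to 52.6 CPM) from 15 counts in the 2 shallower libraries and 6.26 CPM (4.01 to 9.32 CPM) from 24 counts in the 2 deeper ones. In pH it ran the other way, with 3.07 CPM (0.0778 to 17.1 CPM) from 1 count and 17 CPM (11.1 to 24.8 CPM) from 26 counts, as it did in the control, with 6.11 CPM (1.26 to 17.9 CPM) from 3 counts and 9.72 CPM (6.60 to 13.8 CPM) from 31 counts. In T + pH the shallower libraries gave 8.54 CPM (2.33 to 21.9 CPM) from 4 counts and the deeper ones 3.66 CPM (2.29 to 5.54 CPM) from 22 counts. For PGRL1 the 8 shallower libraries gave 20.5 CPM (14.4 to 28.4 CPM) and the 9 deeper ones 33.6 CPM (30.7 to 36.7 CPM). These intervals cover counting error only, and the part of depth in the differences between treatments was not tested.

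**Figure D2:**
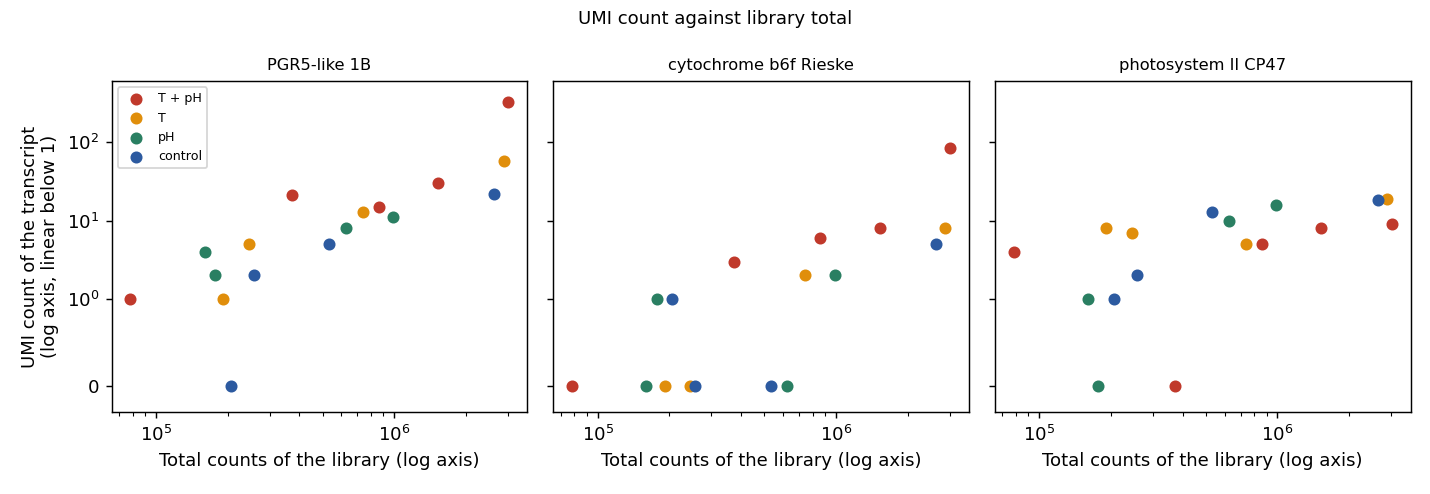
UMI count of each member (vertical axis, logarithmic above 1 and linear below) against the total count of the library (horizontal axis, logarithmic), 1 point per library, coloured by treatment. PGRL1 ranges from 0 to 327 counts as totals rise, whereas CP47 stays between 0 and 19 counts across the same libraries.

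Relative to the control, the fitted differences of the members in T + pH pointed in different directions. PGRL1 was higher in T + pH by a log2 fold change of 2.52 (SE 0.60) in the edgeR fit over all 4 treatments. The Rieske transcript was higher by 2.72 (SE 0.88). CP47 was lower in the fit, at -1.06 (SE 0.92), although its mean CPM over all 5 libraries was higher in T + pH, and DESeq2 put the same difference at -0.15. Of the 3 members only PGRL1 was called in T + pH against the control (edgeR, with an FDR under 0.05 and a log2 difference of more than 0.3 either way), where 0.509% of all tested transcripts were called. It was also the only one whose CPM did not overlap, where 0.567% of tested transcripts were separate and higher in T + pH. The members were chosen with the study's results from these libraries known, so nothing is read from either count. The call of PGRL1 was lost when PO15, PO12, PO10 or PO4 was left out, when PO15, PO2 and PO10 were left out together, and with isoforms summed. The Rieske transcript was called only with the 2 treatments fitted alone.

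Against the single stressors the same order held. PGRL1 in T + pH was at a log2 fold change of 1.44 (SE 0.54) against T and 1.57 (SE 0.58) against pH. The Rieske transcript was at 2.34 (SE 0.81) against T and 2.62 (SE 0.96) against pH. CP47 was at -1.50 (SE 0.93) against T and -1.12 (SE 0.92) against pH. Without PO15, PGRL1 was at 0.74 against T and 0.87 against pH, the Rieske transcript at 1.46 and 1.74, and CP47 at -1.06 and -0.68. The pooled ratio of PGRL1 in T + pH over T was 3.39 (exact binomial 95% interval 2.65 to 4.39) with PO15 and 1.24 (0.884 to 1.75) without it. CP47 was at -2.07 against T and -1.69 against pH without PO19, and at -0.85 against T without PO18. No member was called in either contrast, where 0.102% of tested transcripts were called against T and 0.492% against pH. The 3 comparisons share the T + pH libraries and are not separate evidence. In bulk RNA a lower share of pigmented cells and less RNA per cell cannot be told apart.

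Counts pooled over a treatment gave the same directions. PGRL1 had 394 counts in T + pH and 29 in the control, 60.8 and 7.88 CPM, a ratio of 7.71 (exact binomial 95% interval 5.29 to 11.7). Without PO15 the ratio was 2.83 (1.80 to 4.54), from 67 counts in T + pH. The Rieske transcript had 100 counts in T + pH and 6 in the control, a ratio of 9.46 (4.2 to 26.4), and 3.47 (1.31 to 10.7) without PO15. CP47 had 26 counts in T + pH and 34 in the control, a ratio of 0.434 (0.250 to 0.745), and 0.612 (0.321 to 1.13) without PO15. PO15 therefore set much of the size of the pooled ratios, and the CP47 interval without it included 1. These intervals cover counting error only and leave out the spread between fragments, so one that excludes 1 does not establish a difference. The fit, which includes that spread, put CP47 at a log2 fold change of -1.06 (SE 0.92).

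**Figure D3:**
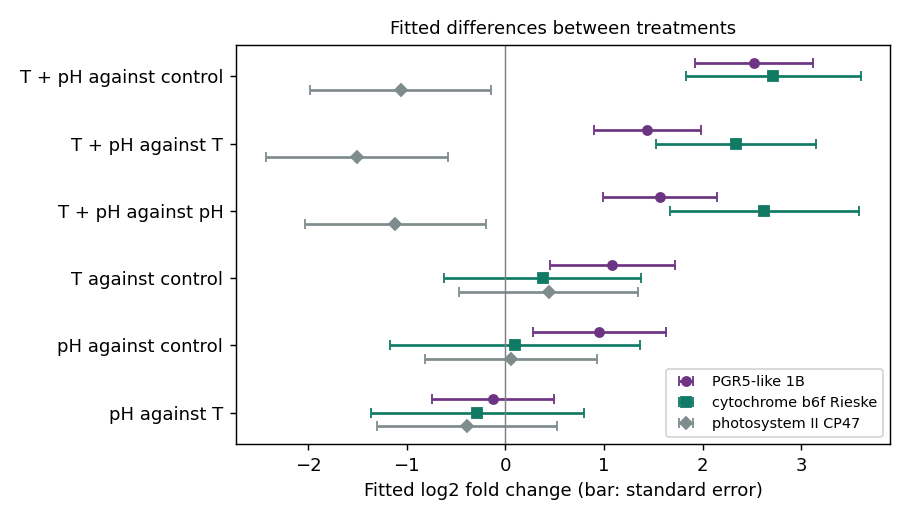
Fitted log2 fold change (horizontal axis) of PGRL1, the Rieske transcript and CP47 in each of 6 comparisons of treatments (vertical axis), with the standard error as a bar, where positive values mean higher in the treatment named first. In T + pH against the control PGRL1 and the Rieske transcript stand at 2.52 and 2.72, and CP47 at -1.06.

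Single libraries also moved the fitted differences. The log2 fold change of PGRL1 between T + pH and the control lay between 1.79 and 2.78 when libraries were left out one at a time, and was lowest without PO15. That of the Rieske transcript lay between 1.81 and 3.14 and was also lowest without PO15. That of CP47 lay between -1.68 without PO19 and -0.18 without the control library PO16, in which CP47 had 13 counts.

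**Figure D4:**
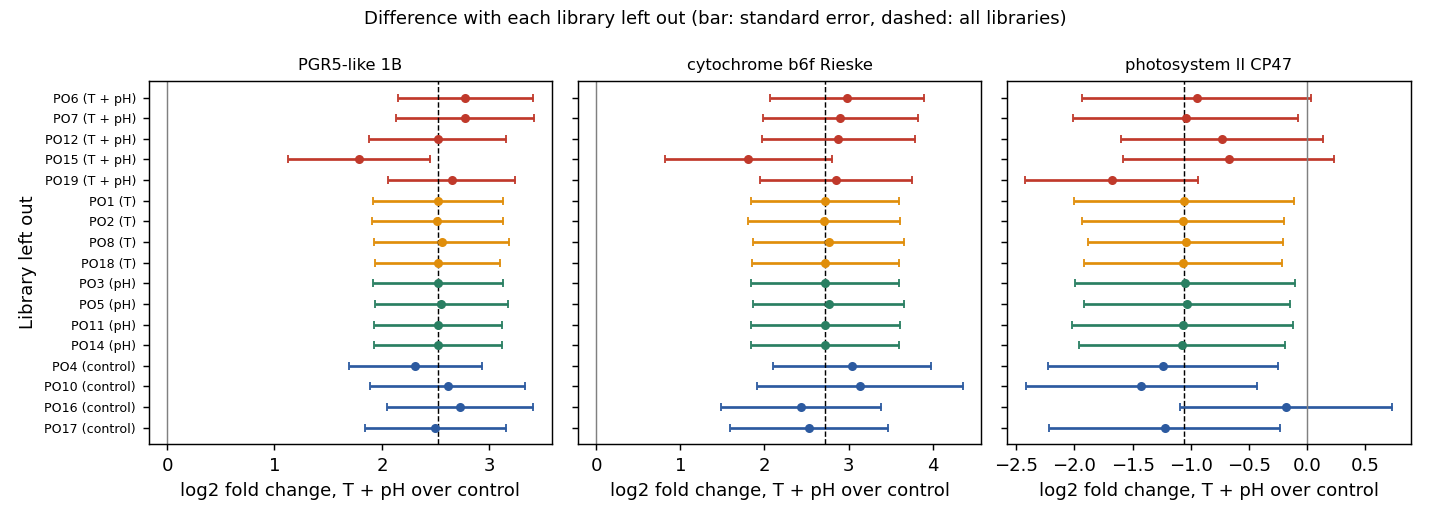
Fitted log2 fold change of each member in T + pH over the control (horizontal axis) with the library on the vertical axis left out, coloured by treatment, with the standard error as a bar, the value from all 17 libraries as a dashed line and 0 as a grey line. PGRL1 and the Rieske transcript fall to 1.79 and 1.81 without PO15, and CP47 moves to -0.18 without PO16.

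The contrasts that do not use T + pH libraries were put through the edgeR test, but they are not independent of the choice of members. The study's expression patterns came from a test over all treatment combinations, so T, pH and control libraries also took part in the choice. The control libraries are also 1 side of T + pH against the control. The FDRs below are therefore descriptions. None of the 3 members passed. PGRL1 was at a log2 fold change of 1.08 (SE 0.63, edgeR FDR = 0.815) in T against the control, with 3 of 4 T libraries above the highest control library. In pH against the control it was at 0.95 (SE 0.67, edgeR FDR = 0.858). All 4 pH libraries were above all 4 control libraries, between 11.6 and 21.7 CPM in pH and between 0 and 10.9 CPM in the control, and 0.533% of tested transcripts were separate in that way. The pH libraries PO11 and PO14 rested on 4 and 2 counts, and the 0 of the control library PO4 allows up to 15.1 CPM, above 3 of the 4 pH libraries, so this separation is not firm at this depth. Between pH and T the difference of PGRL1 was -0.13 (SE 0.62, edgeR FDR = 1).

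The Rieske transcript was at 0.38 (SE 1.0) in T and at 0.09 (SE 1.27) in pH, both against the control and both with an edgeR FDR of 1, and at -0.28 (SE 1.08, FDR = 1) in pH against T. CP47 was at 0.44 (SE 0.91, edgeR FDR = 1) in T and at 0.05 (SE 0.87, FDR = 1) in pH against the control, and at -0.39 (SE 0.91, FDR = 0.961) in pH against T. The standard errors of these differences, between 0.87 and 1.27 on the log2 scale, were larger than the differences themselves. Over all tested transcripts 0% were called in T and 0% in pH against the control by edgeR, where 2025 and 1639 had an unadjusted p below 0.05 and DESeq2 also called 0 in each, and 0.0171% were called in pH against T.

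The Rieske transcript is 1 of 3 isoforms of its Trinity gene in the table, and isoforms of 1 gene can share reads, so that its own counts are uncertain to that extent. The study matched isoform DN73854_c3_g3_i3 to phosphoribulokinase, the Calvin cycle enzyme that makes ribulose bisphosphate, so that 1 assembled gene carries the names of unrelated proteins. Isoform i3 had 751 counts, 6.31 times those of the Rieske isoform i2, and i4 had 140. The i4 count was at or above the i2 count in 17 of 17 libraries and equal to it in 6, and the largest gap was 8 counts. The share of i2 in the counts of the 3 isoforms was 13.5% in T + pH (exact 95% interval 11.1 to 16.1%), 7.52% in T (3.66 to 13.4%), 6.12% in pH (1.28 to 16.9%) and 7.06% in the control (2.63 to 14.7%). The interval of T + pH overlapped that of every other treatment. Without PO15 the share was 9.71% in T + pH (5.76 to 15.1%), which overlaps them too. These intervals cover counting error only.

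Isoforms i3 and i4 had higher fitted levels in T + pH too. The log2 fold change against the control was 1.59 (SE 0.51) for i3 and 2.33 (SE 0.85) for i4, beside 2.72 (SE 0.88) for i2. With the counts of the isoforms summed, the level of the gene was 74.3 CPM in T + pH, 31.8 CPM in T, 35.6 CPM in pH and 27.2 CPM in the control, and the log2 fold change between T + pH and the control was 1.70. A second transcript that the study matched to phosphoribulokinase, DN72649_c1_g2_i2 of another Trinity gene, was at 314 ± 81.1 CPM in T + pH (SD, n = 5) and 47.3 ± 21.4 CPM in the control (n = 4), a log2 fold change of 2.77 (SE 0.47). The other isoform of the CP47 gene in the table, DN73640_c0_g1_i3, had 14 counts in 7 libraries, and its log2 fold change was -1.50 (SE 1.11). PGRL1 was the only isoform of its Trinity gene in the table.

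**Figure D5:**
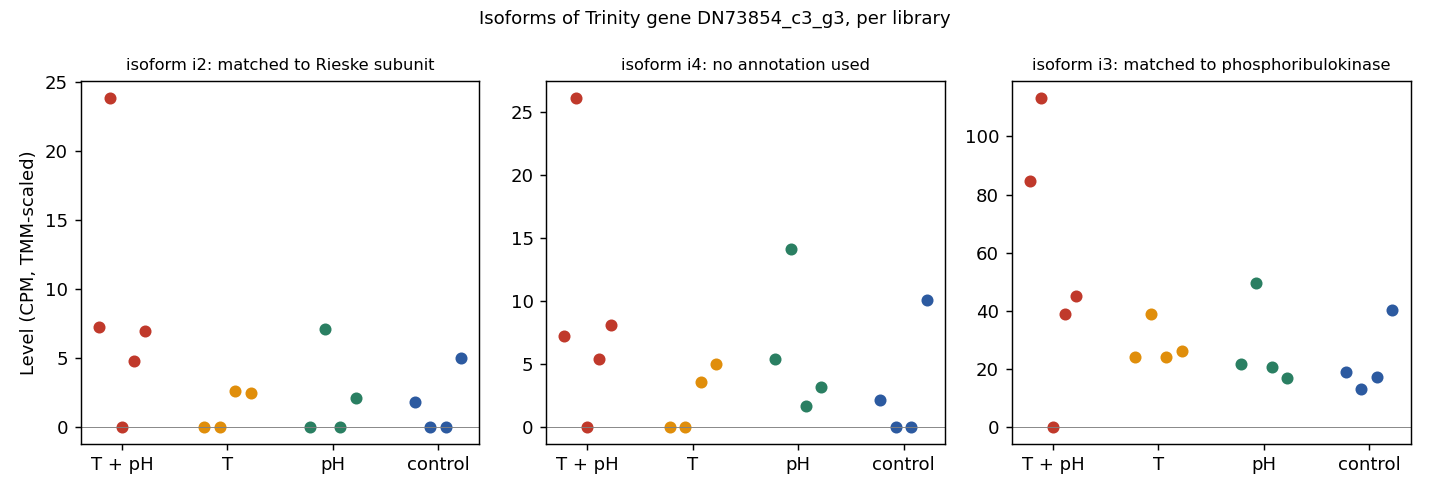
Level in CPM (vertical axis, separate scale per panel) of the 3 isoforms of Trinity gene DN73854_c3_g3 in each library of T + pH, T, pH and the control. The pattern of i4 follows that of the Rieske isoform i2, and PO15 is the highest T + pH point in each panel.

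In the study's RT-qPCR, CP47 was read against a pair of reference transcripts, which differed in their counts here. The study found this pair the most suitable by geNorm. Sparse UMI counts are another measure than RT-qPCR, and the suitability of the pair was not tested here. The beta-tubulin transcript DN76782_c6_g1_i1 had 19 counts in 5 of 17 libraries, of which PO15 held 11. The heme oxygenase transcript DN95780_c0_g1_i1, an enzyme of bilin pigment synthesis, had 155 counts in 17 libraries. Its level was 333 CPM in PO19 from 18 counts, against 6.58 to 19.3 CPM in the other 4 T + pH libraries. PO19 was thus the highest library of T + pH for CP47 and for heme oxygenase alike. The mean level of heme oxygenase was 75.1 ± 144 CPM in T + pH (SD, n = 5) and 20.3 ± 30.2 CPM in the control (n = 4), with a fitted log2 fold change of 1.25 (SE 1.53).

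The other photosynthesis and thylakoid transcripts that the study annotated among those that changed in T + pH form a list of 9, and a list chosen on these samples is not independent evidence of its direction. In T + pH against the control 8 of 9 had a positive fitted difference, with a list median of 1.90 on the log2 scale, against 0.0049 over all tested transcripts. By the edgeR test 2 were called higher, where 0.126% of all tested transcripts were, and 1 was called lower, where 0.383% were. Those higher were the R-phycoerythrin gamma chain at 2.55 (SE 0.54) and HCF107 (DN75042_c0_g2_i1), which in Arabidopsis is needed for transcripts of the plastid operon that contains psbB, the CP47 gene, at 3.12 (SE 0.57). HCF107 was at 57.9, 62.4, 18.5, 59.8 and 56.6 CPM in the T + pH libraries PO12, PO15, PO19, PO6 and PO7, against 4.37 to 13.7 CPM in the control. Without PO15, or without the control library PO10, 1 of the 9 was called higher.

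The transcript matched to Mbb1 (DN70418_c0_g2_i2), a factor that in Chlamydomonas is needed for stable psbB messenger RNA, was at 2.03 (SE 0.58) and was not called. CP47 itself was at -1.06 (SE 0.92) in the same fit and at -0.15 with DESeq2. Both fitted values were negative, but the mean CPM of CP47 over all T + pH libraries was above that of the control. Its direction was thus not settled, and no contrast with the transcripts matched to these psbB factors is read from it. The transcript called lower was matched to plastid ubiquinol oxidase (DN67878_c0_g1_i3), which passes electrons from plastoquinol to oxygen, at -5.06 (SE 0.82). It had 3 counts in all of T + pH and 75 in all of the control. The remaining 5, ATP synthase gamma chain (DN70084_c0_g1_i2), VIPP1 (DN73766_c0_g2_i1), ChlD (DN72560_c0_g2_i1), a PsbP-like protein (DN75024_c0_g4_i1) and KEA3 (DN72803_c1_g1_i1), were at 1.90, 1.69, 1.97, 1.40 and 1.33 and were not called. In T and in pH against the control none of the 9 was called, and the list medians were 0.05 and -0.06.

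Transcripts with levels most like those of the members were found by the Pearson correlation of log2 CPM over the 17 libraries among transcripts with at least 100 counts. All points share the libraries and their depths, so the values are descriptions. For PGRL1 they were DN72909_c0_g2_i5 (r = 0.869), DN70392_c0_g1_i1 (r = 0.862) and DN74729_c0_g1_i3 (r = 0.858) among 11378 candidates, and 0.819, 0.842 and 0.783 without PO15. For the Rieske transcript they were DN75301_c2_g1_i1 (r = 0.860) and the isoforms DN67622_c0_g1_i3 (r = 0.840) and DN67622_c0_g1_i2 (r = 0.839) of 1 other gene. For CP47 they were DN71272_c0_g5_i3 (r = 0.879), DN51786_c0_g1_i1 (r = 0.812) and DN70374_c1_g1_i1 (r = 0.775). DN71272_c0_g5_i3 had 4 counts or 73.9 CPM in PO19, the same as CP47. No member was among the nearest of another.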

How the data were processed

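Libraries were grouped by their GEO titles. The authors processed reads with bcl2fastq and FastQC, mapped them with bowtie2 to a Trinity assembly without poly(A) stretches and to spike-in sequences, and counted UMIs with the CEL-Seq pipeline. The deposited values are whole-number counts per transcript, not normalized. Whether they carry the study's correction for shared UMIs is not stated. No transcript sequences were used.

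Transcripts with at least 5 counts in total were tested. CPM and fitted differences used TMM factors and the edgeR quasi-likelihood F-test (edgeR 4.0.16, legacy form, robust, limma 3.58.1, R 4.3.3) with all 4 treatments in 1 model and Benjamini-Hochberg adjustment over 29276 transcripts. The SE is the absolute log2 fold change over the square root of F. DESeq2 1.42.0 was an alternative, as were the current quasi-likelihood form, no robust estimation, other scaling, other filters, 2 treatments alone, summed isoforms and each library left out. The fit was also run on simulated data with 200 changed transcripts. Their recovery is not reported here and does not show how the fit treats a given member. Intervals are exact at 95%, a count of 0 was taken to allow 3 counts in that library, and both cover counting error only. Tables and figures used Python 3.11.15, pandas 2.3.3, scipy 1.17.1 and matplotlib 3.10.9. All 28 pairs of libraries within a treatment differed by more than sampling noise (chi-square per degree of freedom of at least 4.44), so none was counted as a copy.

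Total counts ranged from 78142 to 3012292 per library. Members and lists were chosen with earlier results of these data known. Named transcripts are the members, isoforms of their Trinity genes, the 9-transcript list, the 2 RT-qPCR references, the second phosphoribulokinase transcript, and the 3 transcripts most correlated with each member. P-values measure the spread between fragments within a treatment. The labels give no tank or header sump, so a difference between tanks cannot be told apart from one between treatments.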

Additional observations from a re-analysis of the deposited data

Results flagged for a closer look

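Libraries that stood apart from the others of their treatment were looked for in the levels of the members and of the RT-qPCR references. The cutoff would mark about 1 in 20 groups by chance for normally distributed values. These levels are sparse counts at very unequal depths, so that rate does not apply. A group in which only 1 library has a count is always marked, as for beta-tubulin in T + pH, T and pH. The marks are therefore descriptions. For CP47 the T + pH library PO19 stood apart at 73.9 CPM, from 4 counts, and the control library PO16 at 28.4 CPM, from 13 counts. For heme oxygenase the same was true of PO19 at 333 CPM in T + pH, PO18 at 44.4 CPM in T and PO4 at 65.5 CPM in the control. For beta-tubulin it held for PO15 at 3.16 CPM in T + pH, PO2 at 1.65 CPM in T, PO3 at 1.71 CPM in pH and PO16 at 2.19 CPM in the control, where most libraries had no count. No library was marked for PGRL1 or the Rieske transcript. The mark sets the gap to the next library against the range of the treatment. For the Rieske transcript in T + pH that range ran down to the 0 of PO19. PO15 at 23.9 CPM, with PO12 next at 7.24 CPM, is thus not shown to be unremarkable.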

How the results depend on the processing

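In the T + pH contrasts each member kept its direction under every alternative that could be run, and with filterByExpr the Rieske transcript was removed. CP47 moved most with DESeq2, to -0.15 against the control and -0.053 against pH. The values that changed sign were all within their SE of 0. The difference of CP47 in pH against the control was -0.10 with DESeq2, -0.0047 with the 2 treatments alone, -0.18 with summed isoforms and -0.33 without the 3 deepest libraries (PO15, PO2 and PO10, chosen after seeing the data). In pH against T, PGRL1 was at 0.0094 with DESeq2 and 0.012 without the deepest libraries, and the Rieske transcript at 0.022 with DESeq2, 0.025 with summed isoforms and 0.17 without the deepest libraries. With summed isoforms the Rieske gene was at 1.37 in T + pH against pH, and at 74.3 CPM in T + pH, 31.8 in T, 35.6 in pH and 27.2 in the control.

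With 1 library left out, CP47 ranged from -0.33 to 0.94 in pH against the control, from -0.22 to 1.32 in T against the control and from -0.88 to 0.28 in pH against T. The Rieske transcript ranged from -0.46 to 0.65, from -0.12 to 0.79 and from -0.83 to 0.27 in the same contrasts, and PGRL1 from -0.30 to 0.015 in pH against T.

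Of the 9 listed transcripts, DESeq2 called 5 higher and 0 lower, with no adjusted p for the ubiquinol oxidase. The count higher was 4 without a filter, 6 with the 2 treatments alone, 0 without the deepest libraries, and 1 to 4 with 1 library left out. The list was chosen on these samples, and the share that DESeq2 called over all tested transcripts is not given here. Nothing is therefore read from these counts. Called transcripts in T + pH against the control, 149 as reported, were 83 with the current quasi-likelihood form, 72 with RLE factors, 276 with library totals, 566 without a filter, 60 with filterByExpr, 960 with the 2 treatments alone, 39 with summed isoforms and 19 without the deepest libraries, and 19 to 261 with 1 library left out. Over all alternatives the counts ran from 15 to 219 in T + pH against T (30 as reported), from 32 to 670 against pH (144), from 0 to 156 in T against the control (0), from 0 to 59 in pH against the control (0) and from 0 to 348 in pH against T (5). The causes were not tested. The labels give each library its own number, and no number is shared between treatments. No paired analysis was possible because of this.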
